A study of Mus musculus with 48 samples.

Results

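The 10 genes described here encode proteins of calcium release, store refilling and calcium extrusion, grouped as astrocyte calcium store and pump genes. That heading does not mean that each gene is particular to astrocytes. The genes are Itpr2, Plcb1, Plcb4, Plce1, Atp2a2, Atp2b1, Atp2b2, Stim1, Orai1 and Slc8a1. They are a fixed list of symbols, not cut by a threshold on any measured value but chosen with earlier results of these data known, and all 10 were found among the 24060 gene symbols of the count table. The study sequenced RNA from the striatum of adult mice of the strain labelled C57, taken here as 24 animals by replicate number. For MPTP replicate 2 the titles name different animals for the IP and the input library. All mice received the astrocyte RiboTag virus 3 weeks before RNA extraction. That virus puts an HA-tagged ribosomal protein, Rpl22, into astrocytes, so that RNA precipitated through the tag (IP library) can be set beside RNA of the cleared lysate (input library) of the same striatum. Each of 3 experiments had 16 libraries, 4 animals in each of 2 groups with an IP and an input library per animal.

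In the MPTP experiment, MPTP, a toxin of dopaminergic neurons, was given at 20 mg/kg in 4 doses and compared with vehicle. The labels name the striatum as the injection site for both. In the SAPAP3 experiment, knockout mice lacking the postsynaptic scaffold gene Dlgap3 (SAPAP3 KO), used as a model of compulsive behaviour, were compared with wild-type littermates (WT). In the R6/2 experiment, R6/2 mice, a transgenic Huntington's disease model, carried either hM4Di, a designer receptor that couples to Gi, or a control cargo. All animals of that experiment were therefore R6/2, and the labels do not say whether an agonist of hM4Di was given. The labels call the tissue striatal astrocytes for IP and input libraries alike, but the input is lysate of the whole striatum.

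In astrocytes, receptors coupled to Gq activate phospholipase C, which makes IP3, and IP3 opens receptor channels in the endoplasmic reticulum so that stored calcium enters the cytosol. Itpr2 encodes the IP3 receptor best known from astrocytes, and Plcb1, Plcb4 and Plce1 encode phospholipases C. Atp2a2 encodes the SERCA2 pump that refills the store, Stim1 the sensor of store filling and Orai1 the plasma membrane channel that Stim1 opens. Atp2b1 and Atp2b2 encode plasma membrane calcium pumps, and Slc8a1 encodes a sodium-calcium exchanger.

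Total counts ran between 34.3 and 61.5 M reads in the 24 IP libraries and between 21.9 and 39.0 M reads in the 24 input libraries, and all 10 genes passed the filter on low counts in every comparison. All 15 astrocyte markers were more than 2-fold higher in IP than in input in each experiment, with medians of 2.52 (MPTP experiment), 2.30 (SAPAP3 experiment) and 2.44 (R6/2 experiment) on the log2 scale. Markers of medium spiny neurons were lower in IP (13 of 13 in each experiment), and so were microglial markers (9 of 9). Striatal interneuron markers were not depleted: 8 of 9 were higher in IP in each experiment, among them Chat (2.23 on the log2 scale) and Slc5a7 (2.18) in the MPTP experiment. Other marker lists went both ways in the control groups, as mean summed CPM of IP against input. Cortical excitatory neuron markers had 293 against 91.9 (vehicle), 396 against 646 (WT) and 259 against 123 (R6/2 control). Oligodendrocyte markers had 6553 against 6878, 8874 against 5808 and 3313 against 4685 in the same order. Precursor markers had 318 against 241, 384 against 214 and 111 against 231. The part of any other cell type in the IP values of the 10 genes was not tested. Dlgap3, the targeted gene, fell by 1.40 in IP and by 1.19 in input on the log2 scale in SAPAP3 KO (edgeR adjusted p of 0.0283 and 0.00698). In these bulk libraries, fewer cells of a type and less RNA per cell cannot be told apart.

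Within a fraction, the pump genes were the most abundant of the 10. Levels are given as the deposited FPKM, which is per length, over all 24 libraries of a fraction. In IP libraries Atp2a2 averaged 218 ± 27.2 FPKM (SD), Atp2b1 181 ± 64.3 FPKM and Atp2b2 140 ± 25.9 FPKM, and their ranges overlapped one another. Plcb1 averaged 80.8 ± 18.4 FPKM in IP libraries, and its lowest library, at 52.5 FPKM, lay above the highest of every less abundant gene of the 10. After it came Stim1 (25.0 ± 3.86 FPKM), Plcb4 (21.8 ± 2.52 FPKM), Plce1 (14.4 ± 2.67 FPKM), Slc8a1 (13.1 ± 4.43 FPKM), Itpr2 (10.3 ± 1.43 FPKM) and Orai1 (5.75 ± 0.826 FPKM), each overlapping its neighbour. In input libraries the order began with Atp2b1 at 242 ± 86.0 FPKM, ahead of Atp2a2 at 202 ± 40.2 FPKM and Atp2b2 at 184 ± 43.8 FPKM. The order of the pumps was not the same in every group. Atp2b1 exceeded Atp2a2 in IP of MPTP animals (265 against 219 FPKM) and of vehicle animals (247 against 241 FPKM). In input, Atp2a2 exceeded Atp2b1 with R6/2 hM4Di (161 against 144 FPKM), R6/2 control (159.6 against 141 FPKM) and SAPAP3 KO (237 against 226 FPKM). Over all 24 inputs, Plcb1 followed at 95.9 ± 21.5 FPKM, then Stim1 at 32.8 ± 6.10, Slc8a1 at 17.9 ± 11.7 and Plcb4 at 11.9 ± 5.04 FPKM. Plce1 (5.08 ± 0.463 FPKM), Itpr2 (4.16 ± 0.610 FPKM) and Orai1 (3.83 ± 0.483 FPKM) were lowest, and their ranges overlapped. In the input, gaps without overlap stood between Atp2b2 and Plcb1, between Plcb1 and Stim1 and between Plcb4 and Plce1.

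**Figure D1:**
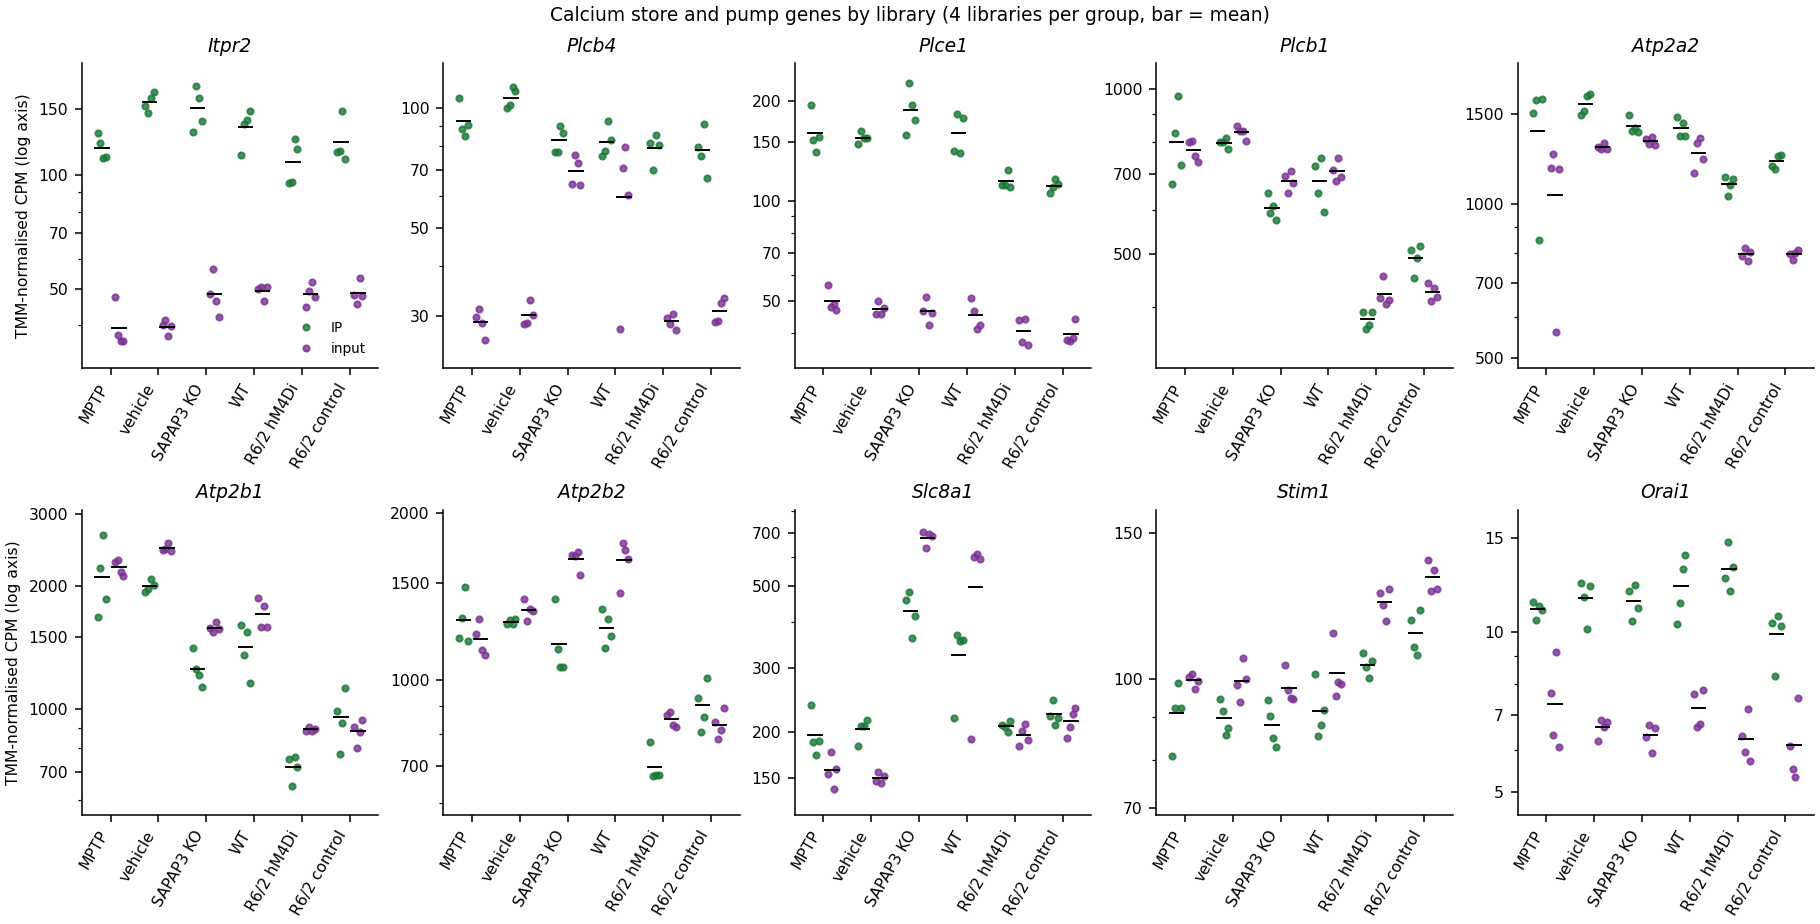
CPM (read counts scaled to library size with TMM over all 48 libraries, log axis) of each of the 10 genes in every IP and input library of the 6 groups, with bars at the means of 4 libraries. Itpr2 and Plce1 separate IP from input in every group, whereas Slc8a1 and Plcb4 are high in the inputs of the SAPAP3 experiment apart from 1 WT library, and Atp2a2 is low in 1 MPTP animal in both fractions.

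The first comparison asked which of these genes were enriched in the precipitated RNA over input. Itpr2, Plce1 and, outside the SAPAP3 experiment, Plcb4 were more than 2-fold higher in IP than in input, Orai1 was higher by less than that, and the remaining genes differed little or were lower in IP. By edgeR's quasi-likelihood test at an adjusted p under 0.05, 8 of the 10 genes were called with MPTP and vehicle animals, 9 with SAPAP3 KO and WT animals and 7 with R6/2 animals. The same rule called 83.7%, 80.2% and 80.3% of all genes tested, so these counts are near the background. More than 2-fold enrichment was called for 3, 2 and 3 of the 10, beside 12.5%, 11.9% and 11.3% of all genes. None of the 10 was depleted more than 2-fold in any experiment, beside 14%, 13% and 12.3% of all genes. The median log2 fold change of the 10 was 0.35, 0.05 and 0.33 in the MPTP, SAPAP3 and R6/2 experiments, against -0.02, 0.00 and -0.02 over all genes tested.

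Itpr2 in the MPTP experiment ranged between 111 and 166 CPM in the 8 IP libraries (median 138), against 36.2 to 47.4 CPM in the 8 inputs (median 38.7). With SAPAP3 KO and WT animals it ranged between 113 and 172 CPM in IP (median 140), against 41.9 to 56.3 CPM in input (median 49.1). With R6/2 animals it ranged between 95.2 and 148 CPM in IP (median 116), against 44.8 to 53.4 CPM in input (median 48.0). All 24 IP libraries thus lay above all 24 inputs. The log2 fold change of IP over input was 1.77 ± 0.07 (SE, MPTP experiment), 1.58 ± 0.08 (SAPAP3 experiment) and 1.27 ± 0.07 (R6/2 experiment), with edgeR adjusted p of 6.7e-14, 6.0e-12 and 3.3e-11.

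Plce1, a phospholipase C regulated by small GTPases, ranged between 140 and 194 CPM in IP libraries of the MPTP experiment, against 45.6 to 56.1 CPM in its inputs. Its IP libraries ranged between 139 and 226 CPM in the SAPAP3 experiment, against 41.3 to 51.5 CPM in input. In the R6/2 experiment the range was 106 to 124 CPM in IP, against 37.0 to 44.2 CPM in input. No library of a fraction overlapped the other, and the log2 fold changes were 1.68 ± 0.06, 1.95 ± 0.09 and 1.51 ± 0.05 (SE), with edgeR adjusted p of 4.0e-15, 1.4e-12 and 1.1e-14.

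Plcb4, a phospholipase C acting downstream of Gq, had 84.9 to 113 CPM in IP libraries of the MPTP experiment, against 26.04 to 32.9 CPM in its inputs. In the R6/2 experiment it had 66.8 to 91.3 CPM in IP, against 27.6 to 33.2 CPM in input. In these experiments the fractions did not overlap, and the log2 fold changes were 1.73 ± 0.06 and 1.42 ± 0.06 (SE), with edgeR adjusted p of 1.6e-15 and 3.5e-13. IP libraries of the SAPAP3 experiment held 75.6 to 92.6 CPM, against 27.8 to 80.0 CPM in input, so the fractions overlapped there. The log2 fold change was 0.40 ± 0.14 (edgeR adjusted p = 0.0173), and 0.30 without WT replicate 1 (edgeR adjusted p = 0.000584). The call was lost without the animals with over 1000 Xist reads, KO replicate 1 and WT replicate 4 (called the animals with Xist reads below). It was also lost under limma-trend on log2(FPKM + 1), at 0.21 (limma adjusted p = 0.172). FPKM values carry no scaling between libraries, and that setting moved the median of all genes in IP over input downward in each experiment.

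Orai1, the least abundant of the 10, had 10.1 to 12.4 CPM in IP libraries of the MPTP experiment, against 6.09 to 9.16 CPM in input. It had 10.3 to 13.98 CPM in IP of the SAPAP3 experiment, against 5.94 to 7.79 CPM in input. In the R6/2 experiment it had 8.26 to 14.8 CPM in IP, against 5.34 to 7.53 CPM in input. The fractions did not overlap in any experiment, and the log2 fold changes were 0.68 ± 0.08, 0.84 ± 0.07 and 0.91 ± 0.09 (SE), with edgeR adjusted p of 1.6e-07, 7.4e-09 and 1.0e-07.

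The 250 bases before an annotated start are shown for Itpr2, Plce1, Plcb4 and Plcb1. The first 3 were more than 2-fold higher in IP, Plcb4 only outside the SAPAP3 experiment. Plcb1, a phospholipase C gene on the same chromosome as Plcb4, was not enriched. RefSeq windows on GRCm38.p6 were matched by symbol for 9 of the 10 genes. Capitals mark the letters TTGGC or GCCAA, the half-site bound by NFI factors on either strand, and ACAAT or ATTGT, the core bound by SOX factors on either strand. Both factor families are known for their role in astrocyte development.
Itpr2 (chr6:146502224-146502473, minus strand): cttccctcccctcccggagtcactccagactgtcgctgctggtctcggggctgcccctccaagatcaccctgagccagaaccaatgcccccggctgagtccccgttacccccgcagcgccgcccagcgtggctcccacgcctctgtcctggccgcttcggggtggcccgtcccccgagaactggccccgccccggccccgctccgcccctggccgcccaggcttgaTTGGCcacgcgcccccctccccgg
Plce1 (chr19:38523947-38524196, plus strand): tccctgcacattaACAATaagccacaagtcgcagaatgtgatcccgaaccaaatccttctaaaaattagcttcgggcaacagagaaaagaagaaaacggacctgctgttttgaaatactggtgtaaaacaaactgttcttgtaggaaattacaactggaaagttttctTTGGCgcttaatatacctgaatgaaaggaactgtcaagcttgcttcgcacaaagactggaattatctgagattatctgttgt
Plcb4 (chr2:135659297-135659546, plus strand): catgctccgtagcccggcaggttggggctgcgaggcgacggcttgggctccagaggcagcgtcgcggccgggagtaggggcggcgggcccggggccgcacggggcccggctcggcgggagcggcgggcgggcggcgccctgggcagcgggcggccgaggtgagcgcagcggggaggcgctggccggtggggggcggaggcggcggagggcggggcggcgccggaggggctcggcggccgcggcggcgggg
Plcb1 (chr2:134785914-134786163, plus strand): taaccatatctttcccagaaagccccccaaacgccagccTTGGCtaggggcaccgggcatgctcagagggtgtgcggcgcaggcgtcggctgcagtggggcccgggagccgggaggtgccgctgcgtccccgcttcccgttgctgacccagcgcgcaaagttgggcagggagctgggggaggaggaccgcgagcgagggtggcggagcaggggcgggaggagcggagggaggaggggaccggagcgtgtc
The Itpr2, Plce1 and Plcb1 windows each held 1 NFI half-site, Plce1 also held 1 SOX core, and the Plcb4 window printed, the first of its RefSeq starts, held neither. A second Plcb4 start (window at chr2:135764588-135764837, plus strand) held 1 NFI half-site. Among 32851 RefSeq windows of this length, 41.5% held the NFI half-site and 27.7% the SOX core, so these letters are common. The GC content was 74.4% for Itpr2, 85.2% for Plcb4, 71.2% for Plcb1 and 38.8% for Plce1. The Plce1 window lies well inside the annotated span of its gene, at an internal start, and not at the beginning of that span. The Plcb4 windows also lie inside the annotated span of their gene, and the Plcb1 window runs past the beginning of its span. On GRCm38, Plcb1 (chr2:134786067-135475258) ends 184 kb before Plcb4 (chr2:135659011-136014593), Itpr2 lies at chr6:146108299-146502223 and Plce1 at chr19:38481109-38785030. Of the annotated genes that overlap the 10, the table holds 2, both antisense to Plcb1, with mean counts of 1.1 and 0.3 reads.

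Atp2a2, the store pump, was higher in IP in each experiment, by small amounts. It had 1356 to 1490 CPM in IP libraries of the SAPAP3 experiment, against 1150 to 1352 CPM in input, and 1034 to 1247 CPM in IP libraries of the R6/2 experiment, against 773 to 818 CPM in input. The fractions did not overlap in either, with log2 fold changes of 0.17 ± 0.04 and 0.55 ± 0.03 (SE) and edgeR adjusted p of 0.00198 and 3.0e-11. The SAPAP3 call was lost without the animals with Xist reads, and its sign turned under limma-trend on log2(FPKM + 1) (-0.052). That limma setting moved the median of all genes in IP over input downward as well, in each experiment. In the MPTP experiment it had 851 to 1639 CPM in IP, against 562 to 1315 CPM in input, and the log2 fold change was 0.33 ± 0.14 (edgeR adjusted p = 0.0347). That call was lost when vehicle replicate 2, 3 or 4 or MPTP replicate 4 was left out, and under limma-trend on log2(FPKM + 1) (0.12, limma adjusted p = 0.472). Without MPTP replicate 3 it was 0.31 (edgeR adjusted p = 5.1e-07).

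The plasma membrane pumps were level between the fractions or lower in IP. Atp2b1 had 1677 to 2671 CPM in IP libraries of the MPTP experiment, against 2120 to 2543 CPM in input, a log2 fold change of -0.21 ± 0.07 (edgeR adjusted p = 0.0130). SAPAP3 KO and WT animals had 1131 to 1607 CPM in IP, against 1542 to 1868 CPM in input, a log2 fold change of -0.27 ± 0.07 (edgeR adjusted p = 0.00116). In the R6/2 experiment its log2 fold change of -0.07 ± 0.08 did not pass (edgeR adjusted p = 0.421). Atp2b2, a pump gene strongly expressed by neurons, fell in IP only in the SAPAP3 experiment among these tests, with 1056 to 1402 CPM in IP against 1438 to 1765 CPM in input. Its log2 fold changes were 0.00 ± 0.05, -0.42 ± 0.07 and -0.06 ± 0.07 (SE) in the MPTP, SAPAP3 and R6/2 experiments, with edgeR adjusted p of 0.932, 1.4e-05 and 0.436.

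Stim1 was slightly lower in IP in each experiment, with log2 fold changes of -0.15 ± 0.04, -0.11 ± 0.04 and -0.21 ± 0.03 (SE) and edgeR adjusted p of 0.00095, 0.0269 and 1.2e-05. The fractions overlapped in each, for example 80.8 to 99.0 CPM in IP against 93.8 to 106 CPM in input of the MPTP experiment. The SAPAP3 call of Stim1 was lost without WT replicate 2, KO replicate 3 or KO replicate 4, and without the filter on low counts (edgeR adjusted p = 0.0743). Plcb1, the most abundant phospholipase C of the list, did not pass in any experiment, with log2 fold changes of -0.03, -0.07 and 0.05 and edgeR adjusted p of 0.677, 0.163 and 0.385. Its approximate 95% intervals ran from -0.14 to 0.08, from -0.17 to 0.02 and from -0.06 to 0.16. They were taken from the SE by a normal approximation, and are narrower than the F test would give.

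**Figure D2:**
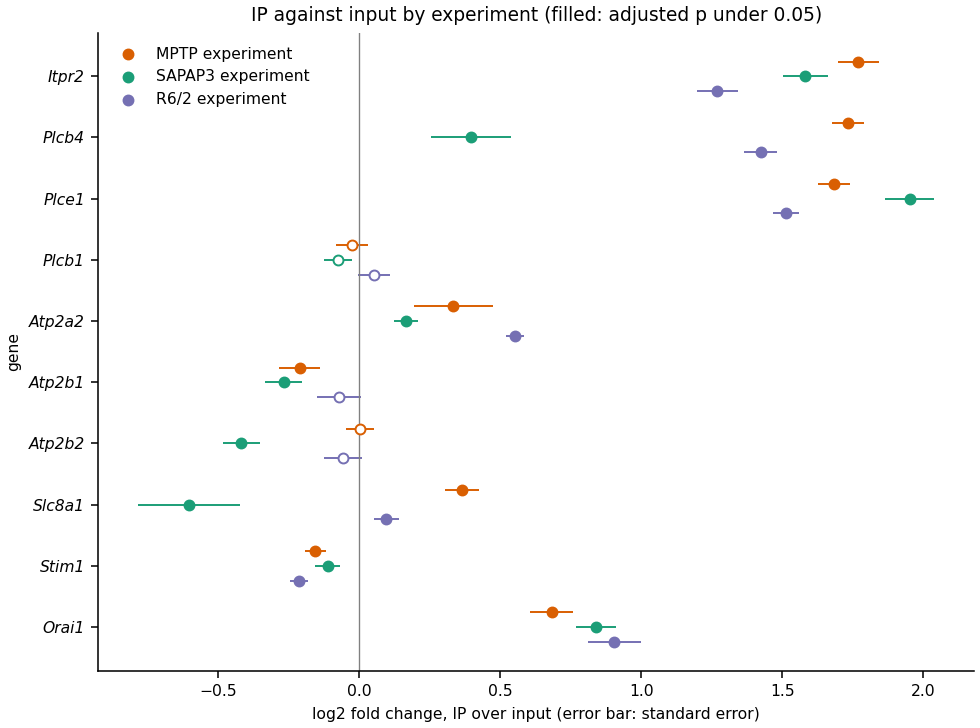
Log2 fold change of IP over input for each of the 10 genes in the 3 experiments (16 libraries each), with bars for the standard error and filled points for an edgeR adjusted p under 0.05. Itpr2 and Plce1 lie above 1 in each experiment, Plcb4 drops to 0.40 in the SAPAP3 experiment, and Slc8a1 lies at 0.36, -0.60 and 0.10.

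Slc8a1 was higher in IP in the MPTP and R6/2 experiments and lower in the SAPAP3 experiment. It had 173 to 237 CPM in IP libraries of the MPTP experiment, against 141 to 177 CPM in input, and 201 to 246 CPM in IP libraries of the R6/2 experiment, against 184 to 233 CPM in input. SAPAP3 KO and WT animals had 219 to 481 CPM in IP, against 192 to 702 CPM in input. The log2 fold changes were 0.36 ± 0.06 (MPTP experiment), -0.60 ± 0.18 (SAPAP3 experiment) and 0.10 ± 0.04 (R6/2 experiment), with edgeR adjusted p of 1.8e-05, 0.00534 and 0.0497. The call in the R6/2 experiment was lost with the animal as a block (edgeR adjusted p = 0.0523), and without control replicate 1 or 2 or hM4Di replicate 1, 2 or 4. Under limma-trend on log2(FPKM + 1) the MPTP call was lost, at 0.12 (limma adjusted p = 0.0546), and the value of the R6/2 experiment changed sign to -0.13. The median of all genes in IP over input also moved downward under that setting.

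Markers of cortical excitatory neurons were high in most inputs of the SAPAP3 experiment, and Slc8a1 and Plcb4 were high in the same libraries. The summed level of 7 cortical markers, which include Slc17a7 and Tbr1, was 156 CPM in the input of WT replicate 1 and 754 to 1006 CPM in the other 7 inputs of that experiment, against 77.1 to 144 CPM in the 16 inputs of the MPTP and R6/2 experiments. Slc8a1 had 192 CPM in the input of WT replicate 1 and 591 to 702 CPM in the other 7, against 141 to 233 CPM in the 16. Plcb4 had 27.8 CPM in the input of WT replicate 1 and 60.5 to 80.0 CPM in the other 7, against 26.04 to 33.2 CPM in the 16. The input of WT replicate 1 thus lay within the range of the 16 for both genes, and just above it for the cortical markers. Its medium spiny neuron markers summed to 11221 CPM in input, against 6401, 7652 and 7020 CPM in WT replicates 2, 3 and 4. Atp2b2 was also highest in the other 7 inputs of the SAPAP3 experiment, at 1549 to 1765 CPM, with 1438 CPM in WT replicate 1. Its inputs had 1112 to 1404 CPM in the MPTP experiment and 784 to 889 CPM in the R6/2 experiment. The part of cortical neurons in the Slc8a1, Plcb4 and Atp2b2 values was not tested. Without WT replicate 1, the log2 fold change of Slc8a1 in IP over input was -0.66, with an edgeR adjusted p of 1.1e-08.

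**Figure D3:**
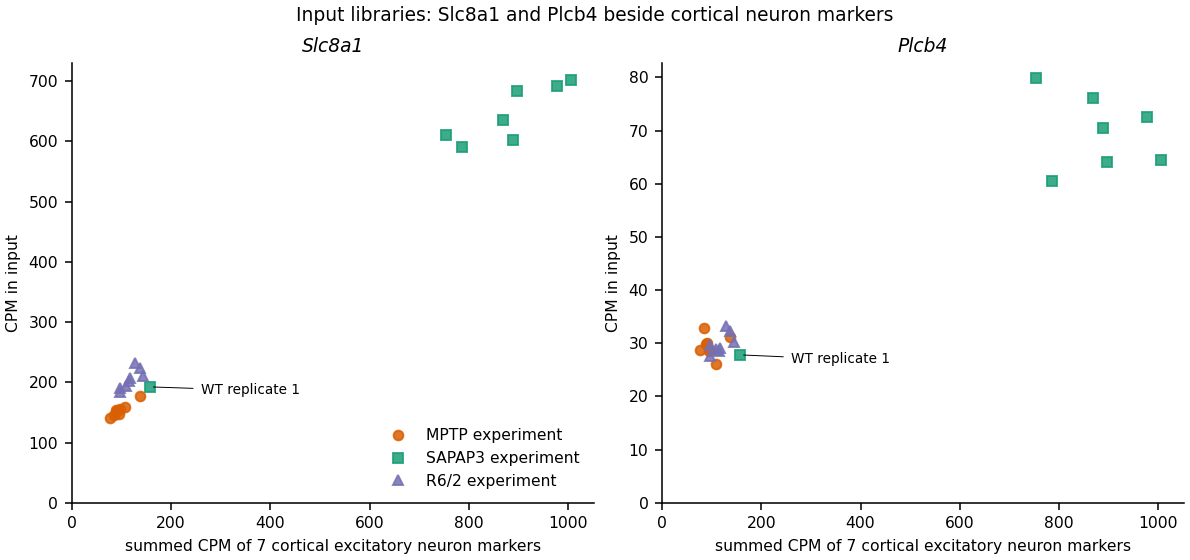
CPM of Slc8a1 and Plcb4 in the 24 input libraries (vertical) by the summed CPM of 7 cortical excitatory neuron markers in the same library (horizontal). The 7 inputs of the SAPAP3 experiment other than WT replicate 1 lie at 754 to 1006 CPM of cortical markers and are also the highest for both genes.

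Other genes of the same pathway also lay on both sides. By the same rule, 40.7%, 40.3% and 39.3% of all genes were called higher in IP and 42.9%, 40% and 41.1% lower in the MPTP, SAPAP3 and R6/2 experiments, and each count below stands beside these shares. The 5 other IP3 and ryanodine receptor genes were all on the input side, 4, 5 and 5 of them called lower in IP in the MPTP, SAPAP3 and R6/2 experiments. Itpr1, the main neuronal IP3 receptor, had log2 fold changes of -0.20, -0.27 and -0.20 (IP over input), and Itpr3 of -1.54, -1.84 and -1.89. Ryr3, a ryanodine receptor, had -0.75, -0.87 and -1.27. Among 11 other phospholipase C genes, 7, 6 and 7 were called higher in IP and 4 lower in each experiment. Plcb3, Plcd1 and Plcd4 were among those higher, at 2.16, 1.97 and 2.36 on the log2 scale in the MPTP experiment and 2.15, 1.92 and 2.59 in the SAPAP3 experiment. Median log2 fold changes of these lists were -0.75, -0.69 and -0.84 for the receptors and 0.42, 0.41 and 0.43 for the phospholipases C.

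Store-operated entry genes were called in both directions. Orai2, another entry channel gene, had log2 fold changes of -1.48, -1.14 and -1.30 (IP over input), and Stim2, another store calcium sensor, had -0.50, -0.48 and -0.34. Over this list of 8 tested genes, 4, 2 and 4 were called higher in IP and 4, 4 and 3 lower. Among other pumps and exchangers, 5 of 10, 2 of 12 and 5 of 10 were called higher and 5, 7 and 5 lower. Slc8b1, the mitochondrial sodium-calcium exchanger, was higher by 1.58, 1.69 and 1.78, Atp2c1, a Golgi pump, by 0.29, 0.30 and 0.34, and Atp2a3, another SERCA pump, had -1.51, -1.33 and -1.27. Of 7 mitochondrial uptake genes, 4 in each experiment were higher in IP, among them Mcur1 (1.54, 1.46 and 1.23) and Letm1 (0.60, 0.56 and 0.52), while 2, 2 and 3 were lower. Micu2, a gatekeeper of the mitochondrial uniporter, was higher by 0.49, 0.78 and 0.37.

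Of 16 genes for Gq and its receptors, 8, 5 and 9 were called higher in IP and 7, 8 and 7 lower, beside 39.3% to 40.7% of all genes higher and 40% to 42.9% lower. Ednrb, the endothelin B receptor, was higher by 2.30, 2.52 and 2.34 on the log2 scale, and Adra1a, an alpha-1 adrenergic receptor, by 1.34, 0.59 and 1.26. Receptors for serotonin (Htr2a, -1.10, -1.43 and -0.89), acetylcholine (Chrm1, -0.86, -0.99 and -0.90) and glutamate (Grm5, -0.51, -0.47 and -0.53) were lower. Gnaq, which encodes the Gq alpha subunit, had 0.45, 0.06 and 0.14, and the value in the SAPAP3 experiment did not pass (edgeR adjusted p = 0.322). Of 11 store calcium-binding and calmodulin genes, 6, 8 and 7 were higher and 4, 3 and 3 lower, with Rcn2 (1.54, 1.59 and 1.501), Canx (0.98, 1.00 and 1.07) and Calu (1.01, 1.16 and 1.06) higher in each.

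For MPTP against vehicle, none of the 10 genes passed an adjusted p under 0.05 in IP or in input by edgeR's test, which called 0% of all genes in either fraction. At an unadjusted p under 0.05 it reached 2 of the 10 genes in IP (Itpr2 and Plcb4), beside 11.2% of all genes, and 3 of the 10 in input (Atp2b1, Atp2b2 and Plcb1), beside 8.26%. DESeq2 called 1 of the 10 in each fraction. Itpr2 came closest, with 129, 122, 111 and 112 CPM in MPTP IP libraries, against 152, 146, 160 and 166 CPM in vehicle IP libraries. The groups did not overlap, and the log2 fold change was -0.39 ± 0.07 (SE), with an edgeR adjusted p of 0.0937 and a DESeq2 adjusted p of 0.000189. In input, Itpr2 had 47.4, 37.6, 36.2 and 36.2 CPM in MPTP animals, against 40.0, 41.3, 37.5 and 39.8 CPM in vehicle animals, and these overlapped. The difference between the IP and input effects was -0.39 ± 0.11, which did not pass (edgeR adjusted p = 0.413). Astrocyte markers were on the same side in IP, with 14 of 15 lower and a median of -0.22 on the log2 scale, none of them called, and their part in the Itpr2 value was not tested.

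Atp2b1 in input had 2293, 2309, 2169 and 2120 CPM in MPTP animals, against 2455, 2466, 2543 and 2436 CPM in vehicle animals, without overlap. The log2 fold change was -0.15 ± 0.04 (SE), with an edgeR adjusted p of 0.512 and a DESeq2 adjusted p of 0.0219. In IP, Atp2b1 had 1677, 2218, 2671 and 1856 CPM in MPTP animals, against 1930, 1964, 2081 and 2016 CPM in vehicle animals, so the MPTP libraries lay on both sides. Apart from Itpr2, log2 fold changes lay between -0.19 (Plcb4) and 0.09 (Atp2b1) in IP, and in input all 10 lay between -0.31 (Atp2a2) and 0.15 (Orai1).

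Atp2a2 was low in 1 MPTP animal in both fractions. It had 1508, 1600, 851 and 1602 CPM in MPTP IP libraries, against 1494, 1516, 1625 and 1639 CPM in vehicle IP libraries. In input it had 1177, 1253, 562 and 1170 CPM in MPTP animals, against 1291, 1282, 1315 and 1279 CPM in vehicle animals. Replicate 3 is the low animal each time. Without it, the log2 fold change of MPTP over vehicle was 0.02 in IP (edgeR adjusted p = 0.959) and -0.10 in input (edgeR adjusted p = 0.695), against -0.16 (edgeR adjusted p = 0.774) and -0.31 (edgeR adjusted p = 0.686) with it.

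The low level in MPTP replicate 3 extended to the neighbours of Atp2a2. On GRCm38, Atp2a2 lies at chr5:122453513-122502225. In that animal, 10 measured genes in a row, Arpc3 to Kdm2b (chr5:122391878-122989823, 598 kb), had 0.359 to 0.602 of the mean of the other 7 animals of the experiment in IP (median 0.532) and 0.460 to 0.544 in input (median 0.500). The 20 other genes measured within 1 Mb had 0.844 to 1.14 in IP and 0.854 to 1.41 in input. Orai1, at chr5:123015074-123030456, lies 513 kb from Atp2a2, just outside the run, and had 0.983 of that mean in IP and 1.41 in input. In the other 7 animals, the lowest value of any of the 10 genes was 0.837 of the mean. Over the whole table, 57 of 11855 measured genes (0.481%) were at or under 0.65 in both fractions of that animal. Among 24 animals, 1 other, WT replicate 3, had runs of 5 or more such genes, at loci that hold none of the 10 genes described here. The cause was not tested.

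**Figure D4:**
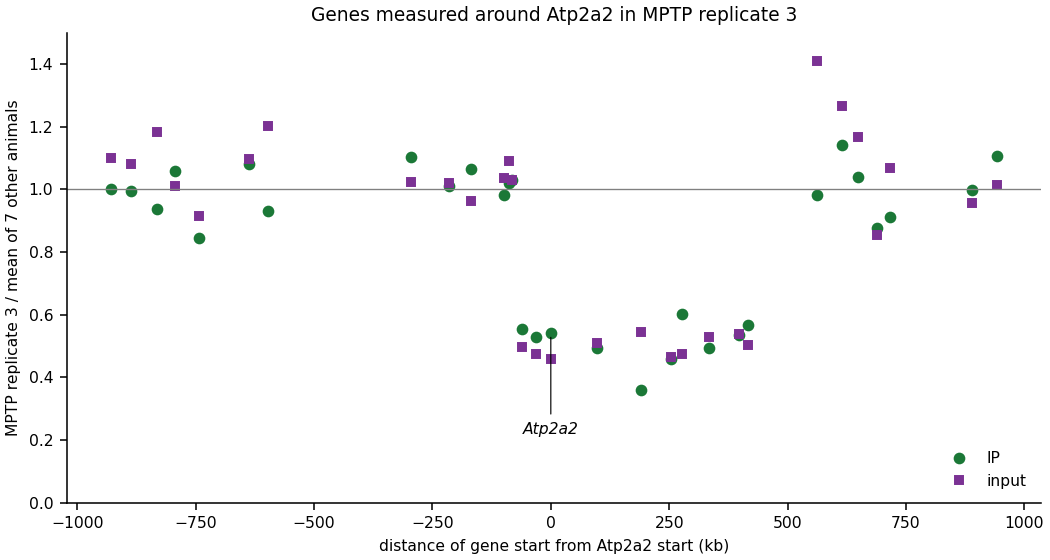
Level of each measured gene within 1 Mb of Atp2a2 in MPTP replicate 3, as a ratio to the mean of the other 7 animals of the MPTP experiment (vertical), by distance from Atp2a2 (horizontal, kb), for IP and input. The 10 genes of the run lie at 0.359 to 0.602, and the 20 others at 0.844 to 1.41.

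For SAPAP3 KO against WT, none of the 10 genes passed in IP, where edgeR called 0.0263% of all genes, or in input, where it called 0.00641%. At an unadjusted p under 0.05 it reached 1 of the 10 (Slc8a1) in IP, beside 2.63% of all genes, and 0 of the 10 in input, beside 5.57%, and DESeq2 called 0 of the 10 in either. Slc8a1 had 457, 481, 362 and 414 CPM in KO IP libraries, against 219, 368, 355 and 356 CPM in WT IP libraries, and in input 702, 635, 692 and 684 CPM in KO, against 192, 602, 611 and 591 CPM in WT. WT replicate 1 is the low library in both, and the KO inputs lay above all WT inputs. The log2 fold changes were 0.41 ± 0.16 in IP (edgeR adjusted p = 0.999) and 0.44 ± 0.29 in input (edgeR adjusted p = 0.740), and without WT replicate 1 they were 0.26 and 0.18, neither past the threshold. Cortical markers were on the KO side in both fractions (7 of 7 in each, none called, medians of 0.65 and 0.55 on the log2 scale), and their part was not tested. Plcb4 in input had 64.5, 76.1, 72.6 and 64.1 CPM in KO, against 27.8, 70.5, 80.0 and 60.5 CPM in WT, a log2 fold change of 0.22 ± 0.25 that was -0.02 without WT replicate 1. The other 8 genes had log2 fold changes between -0.17 and 0.24 in IP and between -0.17 and 0.08 in input.

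The comparison of hM4Di with control cargo in R6/2 mice asked whether the levels of these genes differed between the cargoes in the disease model. Plcb1, Atp2b1 and Atp2b2 were lower in IP with hM4Di and Orai1 was higher, 4 of 10 genes at an edgeR adjusted p under 0.05, beside 14.7% of all genes. Lower calls made up 5.63% and higher calls 9.06% of all genes. In input none of the 10 was called, beside 0.0198% of all genes. At an unadjusted p under 0.05, edgeR reached 1 of the 10 in input (Stim1), beside 7.67% of all genes, and DESeq2 called 0 of the 10.

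Plcb1 had 392, 364, 371 and 391 CPM in hM4Di IP libraries, against 508, 451, 491 and 518 CPM in control IP libraries. All hM4Di libraries were lower, and the log2 fold change was -0.35 ± 0.05 (SE), with an edgeR adjusted p of 0.00466. In input it had 416, 456, 405 and 412 CPM with hM4Di, against 442, 410, 434 and 417 CPM in controls, which overlapped. The difference between the IP and input effects was -0.36 ± 0.07 (edgeR adjusted p = 0.0123), a test that called 3.1% of all genes. The IP call held in all 15 alternatives, and the difference was lost without control replicate 1 (edgeR adjusted p = 0.0513).

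Atp2b2 had 773, 673, 676 and 674 CPM in hM4Di IP libraries, against 930, 806, 857 and 1010 CPM in control IP libraries, without overlap. In input it had 865, 877, 831 and 825 CPM with hM4Di, against 841, 784, 812 and 889 CPM in controls, with overlap. The log2 fold change was -0.35 ± 0.08 in IP (edgeR adjusted p = 0.02) and 0.04 ± 0.04 in input (edgeR adjusted p = 0.903), and the difference between them was -0.40 ± 0.09 (edgeR adjusted p = 0.0296). The IP call was lost without control replicate 1 or without hM4Di replicate 2. The difference was also lost without control replicate 3, hM4Di replicate 3 or hM4Di replicate 4.

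Atp2b1 had 755, 648, 761 and 720 CPM in hM4Di IP libraries, against 989, 775, 922 and 1126 CPM in control IP libraries. Control replicate 2 came close to the highest hM4Di library, and the groups did not overlap. The log2 fold change was -0.38 ± 0.11 (SE), with an edgeR adjusted p of 0.0421, and the call was lost when any library other than control replicate 2 was left out, and under limma-trend on log2(FPKM + 1) (limma adjusted p = 0.0533). In input it had 884, 906, 884 and 892 CPM with hM4Di, against 904, 802, 878 and 939 CPM in controls. The difference between the IP and input effects was -0.42 ± 0.12 (edgeR adjusted p = 0.0736), and with the animal as a block it was -0.41 (edgeR adjusted p = 0.00109). That block also called Atp2a2 (-0.15, edgeR adjusted p = 0.0403), so 4 of 10 rather than 2 were called. Over all genes, calls rose to 2761 with the block, against 492 of 15880 without it.

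Orai1 had 12.7, 14.8, 11.9 and 13.3 CPM in hM4Di IP libraries, against 10.4, 8.26, 10.7 and 10.3 CPM in control IP libraries, without overlap. The log2 fold change was 0.43 ± 0.10 (SE), with an edgeR adjusted p of 0.0252, and the call was lost without control replicate 1, hM4Di replicate 2 or hM4Di replicate 4, and with the replicate number as a block. In input it had 6.37, 5.95, 7.18 and 5.72 CPM with hM4Di, against 6.11, 5.52, 5.34 and 7.53 CPM in controls. The difference between the IP and input effects was 0.37 ± 0.17 (edgeR adjusted p = 0.261). Atp2a2 had 1129, 1034, 1087 and 1117 CPM in hM4Di IP libraries, against 1184, 1173, 1243 and 1247 CPM in control IP libraries, again without overlap. Its log2 fold change of -0.13 ± 0.04 did not pass (edgeR adjusted p = 0.0585).

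The other 5 genes gave no call in IP. Itpr2 had 95.2, 95.8, 125 and 117 CPM with hM4Di, against 115, 116, 148 and 110 CPM in controls. Its log2 fold change was -0.16, with an approximate 95% interval from -0.38 to 0.07 (normal, from the SE, and narrower than the F test would give). Intervals of the same approximate kind ran from -0.14 to 0.22 for Plcb4, from -0.04 to 0.16 for Plce1 and from -0.19 to 0.02 for Slc8a1. Stim1, at -0.11, had an edgeR adjusted p of 0.169.

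**Figure D5:**
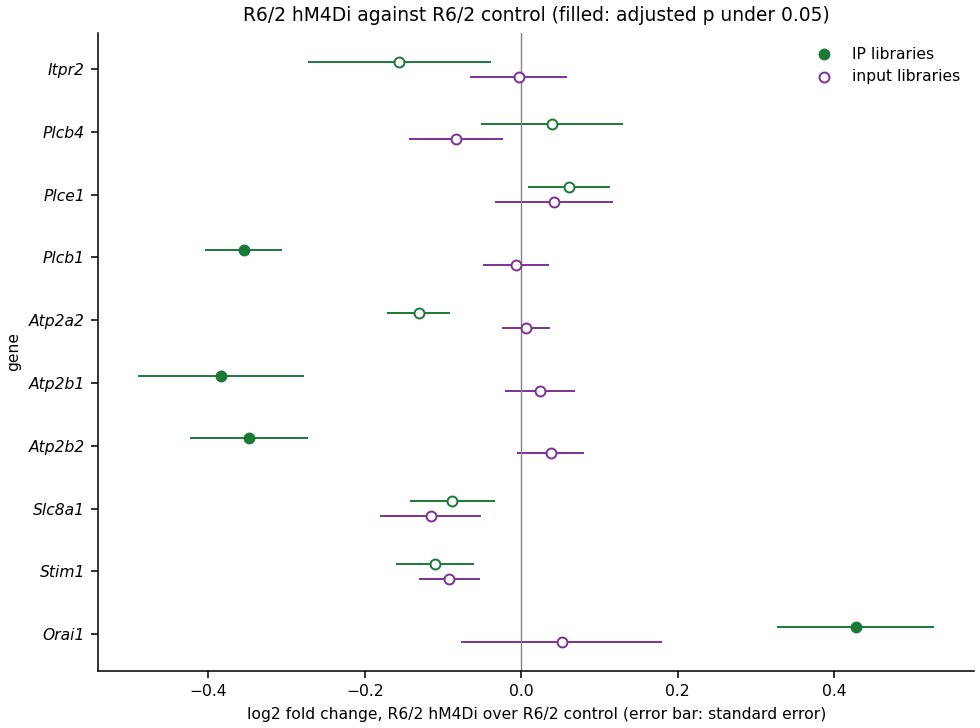
Log2 fold change of R6/2 hM4Di over R6/2 control for each of the 10 genes in IP and in input (4 animals per group), with bars for the standard error and filled points for an edgeR adjusted p under 0.05. Plcb1, Atp2b1 and Atp2b2 lie at -0.35 to -0.38 and Orai1 at 0.43 in IP, while every input value lies between -0.12 and 0.05.

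Markers of other cells also differed in the same IP libraries. The summed level of 13 medium spiny neuron markers was 2081 to 2209 CPM in hM4Di IP libraries, against 2471 to 3729 CPM in control IP libraries, with 9 of 13 called lower (median -0.48 on the log2 scale), among them Adora2a (-0.63). The summed level of 8 oligodendrocyte markers was 4853 to 6881 CPM in hM4Di IP libraries, against 2678 to 3778 CPM in control IP libraries, with 8 of 8 called higher (median 0.84), among them Mobp (0.81) and Mog (0.90). Astrocyte markers summed to 19968 to 21448 CPM with hM4Di, against 24119 to 27499 CPM in controls, with 1 of 15 called higher, 2 lower and a median of -0.09. None of these markers was at 0. Their part in the calls of Plcb1, Atp2b1, Atp2b2 and Orai1 was not tested.

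Other genes of the pathway were called in both directions in IP with hM4Di, beside 5.63% of all genes called lower and 9.06% called higher, with log2 fold changes as follows. Of 5 receptor channels of the store, 3 were lower: Itpr1 (-0.42, with 842 CPM in hM4Di and 1145 CPM in control libraries), Ryr2 (-0.32) and Ryr3 (-0.34). Of 10 other pumps and exchangers, 5 were lower: Atp2b3 (-0.26), Slc24a2 (-0.19), Slc24a3 (-0.29), Slc24a4 (-0.44) and Slc8a3 (-0.17). Of 16 genes for Gq and its receptors, 5 were lower, among them Grm5 (-0.42), Chrm1 (-0.47), Hrh1 (-0.35) and Htr2a (-0.53), and Ednrb (0.34) was higher. Of 11 other phospholipase C genes, 6 were called: Plcd1 (0.35), Plcd3 (0.96), Plcd4 (0.30) and Plcg2 (0.49) were higher, and Plch2 (-0.31) and Plcl2 (-0.34) were lower. Calm2 (-0.23) and Trpc1 (-0.32) were lower and Micu2 (0.21) was higher. Only Grm5 (-0.42) and Ryr2 (-0.33) of these also differed between the IP and input effects at an edgeR adjusted p under 0.05. No gene of these lists was called in input, or by MPTP or SAPAP3 KO in either fraction. Gnaq (-0.07) and Adra1a (-0.16) did not pass in IP with hM4Di.

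R6/2 control animals were also set against the 8 healthy controls (4 vehicle and 4 WT), which came from other experiments, so genotype and experiment cannot be told apart. In IP, 7 of 10 genes were called, beside 50.6% of all genes, and in input 7 of 10, beside 59.9%. Atp2b1, Plcb1, Atp2b2, Atp2a2 and Plce1 were lower in R6/2 control than in healthy animals in both fractions. Atp2b1 had 989, 775, 922 and 1126 CPM in R6/2 control IP libraries, against 1155 to 2081 CPM (median 1768) in healthy IP libraries, and 802 to 939 CPM in R6/2 control inputs, against 1589 to 2543 CPM (median 2152) in healthy inputs. The groups did not overlap in either fraction, and its log2 fold changes were -0.79 ± 0.10 (IP) and -1.22 ± 0.06 (input), with edgeR adjusted p of 4.5e-05 and 1.3e-08. Plcb1 had -0.55 in IP and -0.85 in input, Atp2b2 -0.46 and -0.83, and Atp2a2 -0.27 and -0.67 on the same scale, each called and without overlap. Plce1 had -0.48 in IP and -0.22 in input, both called, and the input call was lost under limma-trend on log2(FPKM + 1), at -0.071 (limma adjusted p = 0.348). Stim1 was the gene that was higher in both, by 0.35 in IP and 0.40 in input, with 107 to 121 CPM in R6/2 control IP libraries, against 85.4 to 102 CPM in healthy ones. Plcb4 was called lower in IP (-0.23) and Itpr2 higher in input (0.14). The Plcb4 call was lost without vehicle replicate 3 or control replicate 1, 2 or 4, or under limma-trend on log2(FPKM + 1), and the Itpr2 call without control replicate 3. Leaving out WT replicate 1 added Slc8a1 in IP (-0.25) and in input (-0.49) and Plcb4 in input (-0.57). Itpr2 in IP, at -0.22 with an edgeR adjusted p of 0.0504, lay at the threshold and was called in 9 alternatives, DESeq2 among them, and Orai1 in IP (-0.24, edgeR adjusted p = 0.0604) in 4.

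The size of such differences between experiments without R6/2 is shown by WT against vehicle, both healthy. There, 3 of 10 genes were called in IP, beside 22.7% of all genes, and 6 of 10 in input, beside 46.3%. Atp2b1 was lower in WT, with log2 fold changes of -0.48 in IP and -0.52 in input, whereas Atp2b2 was higher in input (0.31) and did not pass in IP (-0.02). Slc8a1 was higher by 0.69 in IP and 1.75 in input, Plcb4 had -0.35 in IP and 1.01 in input, Itpr2 0.33 in input and Plcb1 -0.22 in input. The Plcb4 call in IP was lost without vehicle replicate 3. Cortical markers were also higher in WT: their summed level was 233 to 484 CPM in WT IP libraries, against 235 to 335 CPM in vehicle IP libraries, and 156 to 888 CPM in WT inputs, against 84.5 to 97.1 CPM in vehicle inputs, with 5 of 7 called higher in IP and 7 of 7 in input. Their part was not tested. Atp2a2 had -0.02 in input and Stim1 0.05 in both fractions, and none of these 3 values passed. In R6/2 controls, markers of medium spiny neurons were also lower than in healthy animals, with medians of -0.92 in IP and -1.13 in input on the log2 scale, and markers of other cell types were lower too in IP. There, 8 of 8 oligodendrocyte markers (median -1.20), 6 of 6 precursor markers (-1.45), 9 of 9 interneuron markers (-0.75), 8 of 9 microglial markers (-1.16) and 8 of 15 astrocyte markers (-0.28) were called lower, and in input 5 of 8, 1 of 6, 9 of 9, 9 of 9 and 12 of 15. In R6/2 control IP libraries astrocyte markers summed to 24119 to 27499 CPM, against 27436 to 38854 CPM in healthy ones, and oligodendrocyte markers to 2678 to 3778 CPM, against 5447 to 10911 CPM. Precursor markers summed to 98.4 to 125 CPM in R6/2 control IP libraries, against 304 to 445 CPM in healthy ones, and interneuron markers to 565 to 718 CPM, against 821 to 1574 CPM. None of these markers was at 0, and their part was not tested.

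Enrichment itself, IP over input, was compared the same way. In R6/2 controls relative to healthy animals it was higher for Atp2a2 (0.37), Atp2b1 (0.39), Atp2b2 (0.34) and Plcb1 (0.26) and lower for Itpr2 (-0.40), 5 of 10 genes, beside 14.9% of all genes. With the animal as a block Plce1 (-0.29, edgeR adjusted p = 0.0235) was also called lower, 6 of 10 genes, while calls over all genes rose to 4159, against 2427 without the block. In WT relative to vehicle it was lower for Plcb4 (-1.38), Slc8a1 (-1.08), Itpr2 (-0.55) and Atp2b2 (-0.35), 4 of 10, beside 12.9% of all genes, and the block left 4 of 10 called with 3892 calls over all genes, against 2113 without it. The R6/2 calls of Itpr2, Plcb1 and Atp2b1 were lost without control replicate 1, that of Plcb1 also without control replicate 4, and that of Atp2b1 also without control replicate 3 or 4. The WT calls of Atp2b2 and Slc8a1 were lost when WT replicate 2, 3 or 4 or vehicle replicate 2, 3 or 4 was left out, or the animals with Xist reads, and that of Slc8a1 also under limma-voom and limma-trend (limma adjusted p of 0.0687 and 0.0777).

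Genes whose pattern over the 12 group means was most like each of the 10 were found by the smallest root-mean-square difference of centred log2 CPM. For Itpr2 these were Trp53bp2 (0.0803) and Prrx1 (0.0877), for Plce1 Lrig1 (0.0831) and Add3 (0.0897), and for Plcb4 Csdc2 (0.116) and Rgs6 (0.129). For Plcb1 they were Sec14l1 (0.0935) and Atp6v0c (0.105), for Atp2a2 Sept11 (0.0909) and Dok5 (0.0980), for Atp2b1 Rhobtb2 (0.136) and Strn (0.172), and for Atp2b2 Cntnap1 (0.0738) and Lgi2 (0.0833). For Stim1 they were Ap5m1 (0.0443) and Zfp13 (0.0465), for Orai1 Sowahc (0.0851) and Cd97 (0.0900), and for Slc8a1 Trhde (0.144) and Atp2b4 (0.148). Atp2b4, another plasma membrane calcium pump gene, is the pathway gene nearest to Slc8a1 by this measure.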

How the data were processed

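RNA of 48 libraries (taken as 24 animals, an IP and an input library each) was analysed. Libraries were ribosomal-RNA-depleted and stranded, per the labels' protocols. The read counts per gene were made by the authors with STAR and HTSeq on mm10, per the submitters' processing notes; versions and the strand setting are not given in the sources used here. The deposited FPKM values are the authors' counts per length and library total. They carry no scaling between libraries, so levels were ordered with them only within a fraction, and 1 alternative tested them on the log2(FPKM + 1) scale.

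Counts were fitted with edgeR 4.0.16 (R 4.3.3): filterByExpr with a minimum count of 10, TMM, quasi-likelihood F test, Benjamini-Hochberg adjustment over all genes tested, threshold 0.05. CPM values use TMM over all 48 libraries. Alternatives were relative log expression scaling, DESeq2 1.42.0, limma 3.58.1 (voom, and trend on log2(FPKM + 1)), no filter, an adjusted p of 0.1, blocks, leaving out each animal, and leaving out the animals of the SAPAP3 experiment with over 1000 Xist reads. Scripts were tested on simulated counts. The 10 genes and all lists were chosen with earlier results of these data known. Named genes are the 10, every pathway gene called in a perturbed group against its control or in an interaction, the 3 of each pathway list with the smallest p in IP against input of the SAPAP3 experiment, Itpr1, Gnaq, Grm5 and Adra1a, the 2 genes nearest in pattern to each of the 10, the 2 markers with the smallest p of lists with a median past 0.1, and Dlgap3. Some genes that this rule names are not reported here.

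IP and input libraries of an animal deviated together (correlations of 0.175 to 0.549, 0.405 to 0.655 and 0.513 to 0.789 in the MPTP, SAPAP3 and R6/2 experiments), so they pair by animal. The main fits did not use this pairing. They held no term for the animal, which entered only as a block among the alternatives. The titles of MPTP replicate 2 name different animals for IP and input, and it was the 1 animal of 24 whose IP library correlated less with its own input (0.186) than with another of its group (0.206). The animal name in the title of WT replicate 3 is compound, and whether it stands for more than 1 animal is not known. Replicate numbers were not taken to pair animals across conditions. The labels do not say whether replicates came from separate litters or days. No replicate pair agreed within counting noise (chi-square per degree of freedom of 3.99 to 91.4 over 72 pairs).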

Additional observations from a re-analysis of the deposited data

Results flagged for a closer look

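Among 120 groups of 4 libraries, 9 held a library far from the other 3, and chance alone gives about 1 in 20. Atp2a2 had 851 CPM in the IP and 562 CPM in the input library of MPTP replicate 3, against at least 1508 and 1170 CPM in the other MPTP animals. Slc8a1 had 219 CPM in the IP and 192 CPM in the input library of WT replicate 1, against at least 355 and 591 CPM in the other WT animals. Itpr2 had 47.4 CPM in the input of MPTP replicate 1, with 36.2 to 37.6 CPM in the others, and 148 CPM in the IP library of R6/2 control replicate 3, with 110 to 116 CPM in the others. Plce1 had 124 CPM in the IP library of hM4Di replicate 3, with 110 to 112 CPM in the others, and 44.1 CPM in the input of R6/2 control replicate 4, with 37.9 to 38.7 CPM in the others. Atp2b2 had 773 CPM in the IP library of hM4Di replicate 1, with 673 to 676 CPM in the others.

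The effect of hM4Di differed between IP and input by -0.396 for Atp2b2 and -0.359 for Plcb1 on the log2 scale. Enrichment in IP differed between R6/2 controls and healthy animals by 0.371 for Atp2a2, 0.393 for Atp2b1, 0.341 for Atp2b2, 0.259 for Plcb1 and -0.395 for Itpr2. Between WT and vehicle it differed by -0.348 for Atp2b2, -0.548 for Itpr2, -1.38 for Plcb4 and -1.08 for Slc8a1. The causes were not tested.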

How the results depend on the processing

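Counts of called genes among the 10 moved by over 1.5 times in few settings. For MPTP against vehicle in IP, 0 became 1 under DESeq2 and 1 at an adjusted p of 0.1, and in input 0 became 1 under DESeq2. For hM4Di in IP, 4 became 1 to 4 with a library left out, and the count was 3 with the replicate number as a block. The difference between its IP and input effects, called for 2 genes, was called for 4 under DESeq2, 4 with the replicate block by animal and 0 to 3 with an animal left out. For WT against vehicle in IP, 3 became 5 under DESeq2 and 5 at an adjusted p of 0.1. Enrichment calls were 2 to 6 with an animal left out for R6/2 (5 in the full fit), and 2 to 4 for WT (4 in the full fit), with 2 without the animals with Xist reads. The cause was not tested. Over all genes, edgeR and DESeq2 called 0 and 296 for MPTP in IP, 0 and 66 in input, 4 and 11 for SAPAP3 KO in IP, 1 and 8 in input, 2227 and 3467 for hM4Di in IP, and 3 and 57 in input, while leaving out a library gave 892 to 2130 for hM4Di in IP. For the difference between its effects, 492 became 1147 under DESeq2, 2761 with the animal as a block and 91 to 433 with an animal left out. On log2(FPKM + 1) with limma-trend, the median of all genes in IP over input moved by -0.21, -0.21 and -0.22, and 4 values changed sign: Atp2b2 to -0.22 (MPTP experiment), Atp2a2 to -0.052 (SAPAP3 experiment), Plcb1 to -0.18 and Slc8a1 to -0.13 (R6/2 experiment). Orai1, with about 10 CPM, was the least deeply counted of the 10. Same-numbered animals of 2 conditions did not all correlate above 0.1 in any comparison, although 3 of 4 pairs did in IP and 2 of 4 in input for SAPAP3 KO against WT (up to 0.394 and 0.51), so the block by number is an alternative only. On log2(FPKM + 1), 4 further IP over input values became calls: Plcb1 at -0.25 (MPTP experiment) and -0.29 (SAPAP3 experiment), and Atp2b1 at -0.31 and Atp2b2 at -0.30 (R6/2 experiment). All 4 lay on the side to which that setting moved the median of all genes.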
